A study of Danio rerio with 6 samples.

Results

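dre-miR-21 is the zebrafish microRNA (miRNA) miR-21. It was selected on its level in these same libraries, as the most abundant of the 414 miRNAs of the table. The size of its share, its rank and its lead over the next miRNAs are therefore given as a description with no test. Its TPM is that share on another scale, and only the difference of its level between the conditions was tested. That difference was not part of the selection. Small RNA was sequenced from ZF4 cells, a fibroblast-like line established from zebrafish embryos. The control group was kept at 28°C (3 libraries) and the cold acclimation group at 18°C for 30 days (3 libraries). The submitters describe the 3 libraries of each condition as biological replicates, and all 6 come from the same line, so the values speak for ZF4 cells in culture and not for a tissue. Levels are in TPM, here the reads of a miRNA per 1000000 miRNA reads of its library, with no correction for length.

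A miRNA is cut from a hairpin precursor and loaded into an Argonaute protein, where the bases near its 5′ end pair with messenger RNAs and lower their translation and stability. In mammals miR-21 is known for repressing Pdcd4, a gene of programmed cell death, for its rise in many tumours and for its part in fibroblast activation and organ fibrosis. In zebrafish it is known from the forming heart valves, where it responds to blood flow. RefSeq annotates 2 precursor genes in the zebrafish assembly GRCz12tu. dre-mir-21-1 lies between the protein-coding genes rps6kb1a, an S6 kinase, and ptrh2, a peptidyl-tRNA hydrolase of mitochondria. dre-mir-21-2 lies between vmp1, a gene of autophagy, and tubd1, which encodes delta-tubulin. Neither lies inside a protein-coding gene. The table has a single row for the mature miRNA, so the reads of the 2 precursors cannot be told apart, and the files pair no sequence with it.

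The libraries held from 11748241 to 14960610 miRNA reads, and 1 read was worth 0.0668 to 0.0851 TPM. The listed markers of other cell types were low throughout. The summed levels over the libraries were 2.04 to 5.61 TPM for 3 muscle miRNAs, 10.9 to 19.8 TPM for 3 neural ones and 94.9 to 189 TPM for 6 epithelial ones. The defining miRNAs dre-miR-1 (muscle), dre-miR-124-3p (neurons), dre-miR-223 (myeloid cells) and dre-miR-126a-3p (endothelium) were each at 0 in at least 1 library. However, dre-miR-124-4-5p, another strand of miR-124 outside the list, averaged 0.301 TPM in control and 10.3 TPM under cold acclimation. That was a log2 fold change of 3.11 (limma adjusted p = 3.3e-06), the largest in size of the 310 miRNAs tested. The 8 miRNAs of the mesenchymal list, which includes the smooth muscle and fibroblast pair miR-143 and miR-145, summed to 20359, 20825 and 7788 TPM in control 1, 2 and 3 and to 8786, 9283 and 7699 TPM in cold acclimation 1, 2 and 3. The order of these sums did not follow the condition alone, since control 3 lay with the cold libraries. Single members varied in this. In dre-miR-143 control 3 was at 374 TPM, below the cold libraries (1147 to 2252 TPM). In dre-miR-140-3p it was at 1208 TPM, above the cold libraries (759 to 975 TPM). Control 3 also had 17 miRNAs more than 1 log2 unit below the mean of the other controls, against 0 in control 1 and 2. Cold acclimation 3 had 6 that far below the mean of the other cold libraries. Several counts and calls that turned on either library are given with and without it. Others are given as a range over fits that left out each library. In bulk RNA, fewer cells of a kind and less RNA per cell cannot be told apart.

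dre-miR-21 was the most abundant miRNA in every library and gave from 38.0% to 42.1% of the miRNA reads. It was at 386375, 388386 and 396585 TPM in control 1, 2 and 3. It was at 384393, 379977 and 421105 TPM in cold acclimation 1, 2 and 3. The conditions overlapped: cold acclimation 1 and 2 were below all controls and cold acclimation 3 was above them. As shares of the miRNA reads these were 38.6%, 38.8% and 39.7% in the controls and 38.4%, 38.0% and 42.1% under cold acclimation. The means were 39.0% ± 0.541 in control and 39.5% ± 2.26 under cold acclimation (SD, n = 3).

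Counting error was small beside these differences. dre-miR-21 was read 4464062 to 5881267 times per library. The 95% Wilson interval ran from 38.61% to 38.66% in control 1 and from 42.08% to 42.14% in cold acclimation 3, the library where the share was highest. Such intervals cover counting error only. The SD between libraries was 42.0 times the SD that counting gives in the controls and 164 times under cold acclimation, so depth did not limit the comparison of dre-miR-21 and the spread between libraries did.

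**Figure D1:**
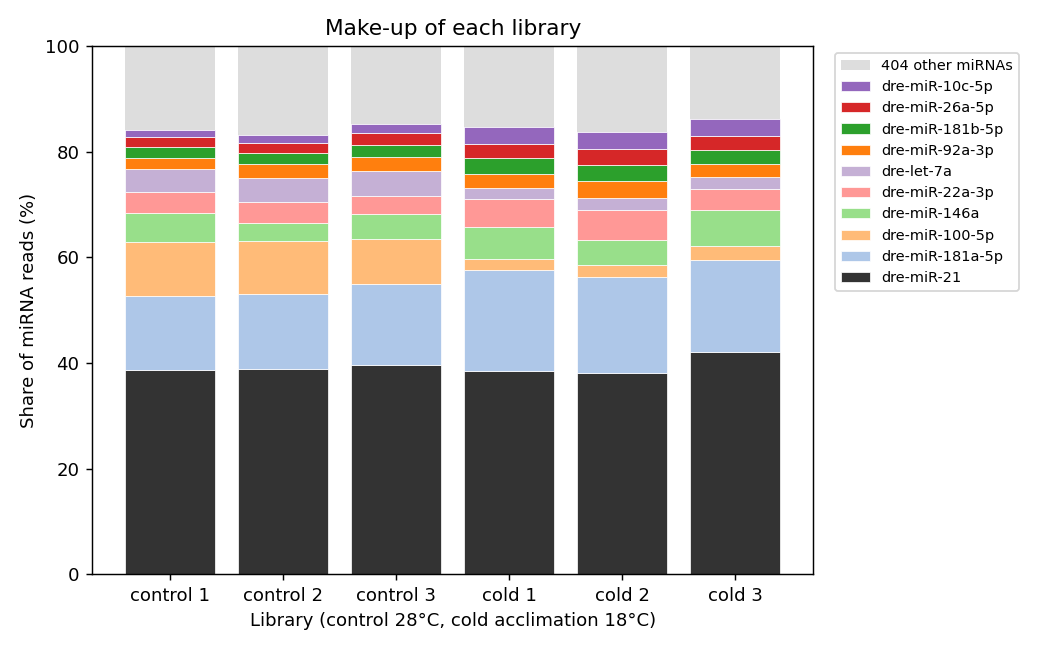
Share of miRNA reads (%) in each of the 6 libraries, stacked by miRNA for the 10 most abundant known miRNAs and the remaining miRNAs of the table. The lowest block, dre-miR-21, took 38.0% to 42.1% of every library.

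The level of dre-miR-21 did not pass the test between cold acclimation and control. The fitted log2 fold change on the log2(TPM + 1) scale was 0.02 (SE 0.0715, 95% interval -0.14 to 0.18), which is 1.01-fold with an interval of 0.905 to 1.13 (limma, adjusted p = 0.899 over 310 tested miRNAs). Of those 310, 16.5% rose and 14.5% fell at an adjusted p under 0.01, and in 58.1% the cold and control values were fully apart, whereas those of dre-miR-21 overlapped. The interval leaves room for a fall of up to 0.905-fold or a rise of up to 1.13-fold. Without cold acclimation 3, the log2 fold change was -0.03 (adjusted p = 0.628), so the sign rested on that library. Reads of dre-miR-21 per read of all other miRNAs are the same share on another scale. They order the libraries in the same way by construction and add no separate evidence. They were 0.630, 0.635 and 0.657 in the controls and 0.624, 0.613 and 0.727 under cold acclimation (difference of the log2 means 0.03, exact two-sided permutation p = 1). With 3 against 3 libraries the smallest p of that test is 0.1.

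The library total to which dre-miR-21 was scaled set the sign of its difference. Per 1000000 clean reads, the reads that passed the study's quality filters and include other small RNA, dre-miR-21 was at 374533, 351756 and 347340 in the controls. Under cold acclimation it was at 264685, 276554 and 344582. A value on this scale also depends on the part of the clean reads that were miRNA reads, which was smaller in every cold library than in every control. The study's text reports similar parts of reads mapped perfectly to all non-coding RNA in both conditions, which is another measure. In control 1 and 2 the miRNA part was above the mapped part given there for the controls. These measures thus do not share a basis, and the reason for the smaller miRNA part was not tested. On the clean-read scale dre-miR-21 was lower in every cold library than in every control, although cold acclimation 3 was within 1% of control 3. The means were 357877 ± 14593 and 295274 ± 43112 reads per 1000000 clean reads (SD, n = 3, exact permutation p = 0.1, the smallest possible, and 0.4 adjusted over the 4 exact tests made). The limma log2 fold change was -0.29 (95% interval -0.56 to -0.01), which did not pass at an adjusted p of 0.0715. The median of all tested miRNAs moved to -0.24 on this scale from 0.02 in TPM, so dre-miR-21 lay 0.04 below that median. With median-of-ratios scaling dre-miR-21 gave -0.07 beside a median of -0.06. When the total excluded dre-let-7a and dre-miR-100-5p, the pair of abundant miRNAs that fell, it gave -0.14 beside a median of -0.11. Leaving a pair that fell out of the total lowers the other log2 fold changes by construction. Under none of these scalings did dre-miR-21 pass the test.

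**Figure D2:**
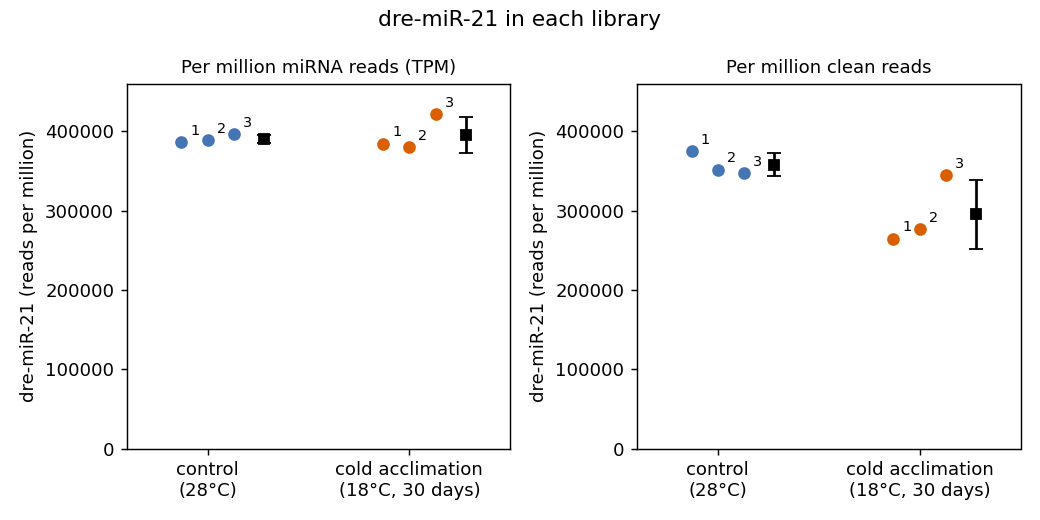
dre-miR-21 in each library, in reads per 1000000 miRNA reads and per 1000000 clean reads, with points for libraries, the mean and the SD of each condition (n = 3), axes from 0. The conditions overlap on the first scale, and on the second the cold libraries (264685 to 344582) lie below the controls (347340 to 374533).

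**Figure D3:**
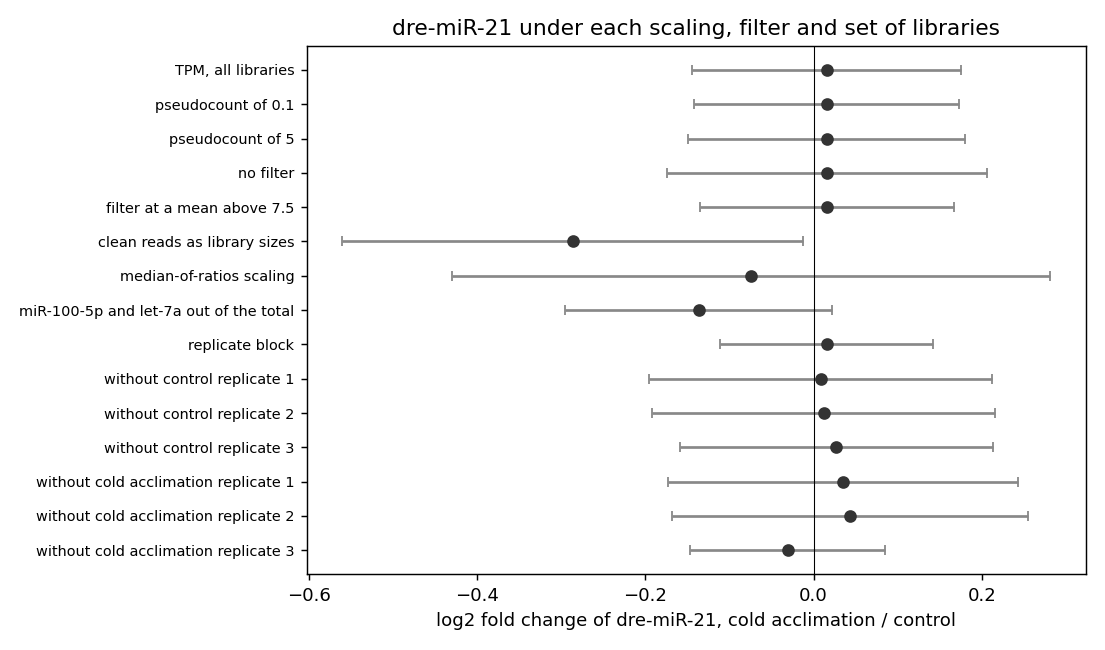
log2 fold change of dre-miR-21 (cold acclimation over control) with its 95% interval under each scaling, filter, pseudocount and set of libraries, one setting per line. Values ran from -0.29 with clean reads as library sizes to 0.04 without cold acclimation 2.

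With both conditions pooled, dre-miR-21 was among the steadiest miRNAs between libraries of a condition. Its SD within conditions was 0.0591 on the log2 scale, the second smallest of the 310 tested, after dre-miR-181c-5p with 0.0495. The median over all tested miRNAs was 0.252, and the other 9 of the 10 most abundant known miRNAs ran from 0.0661 to 0.317. Under cold acclimation alone dre-miR-21 was at 395158 ± 22578 TPM. There dre-miR-10c-5p (31846 ± 392 TPM) and dre-miR-181a-5p (182488 ± 8586 TPM) varied less for their level. The rest of the 9 varied as much or more. The size of its log2 fold change was the ninth smallest of the 310, where the median size was 0.587. A miRNA that holds a large part of a total varies less as a share of that total by construction, and the level was what chose dre-miR-21, so this steadiness is a description.

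The gap between dre-miR-21 and the next miRNA was narrower under cold acclimation. The next miRNA was dre-miR-181a-5p in every library, a miRNA known in mammals from lymphocyte development. dre-miR-21 had 2.75, 2.75 and 2.61 reads for each read of dre-miR-181a-5p in the controls and 2.01, 2.08 and 2.42 under cold acclimation. The means were 2.70 ± 0.0826 and 2.17 ± 0.221 (SD, n = 3), with every cold library below every control. dre-miR-181a-5p itself was at 140458, 141136 and 152046 TPM in the controls and at 190810, 182993 and 173661 TPM under cold acclimation. Against the geometric mean of the next 9 known miRNAs the gap did not differ in the same way, with 10.3 ± 0.182 in control and 10.2 ± 0.786 under cold acclimation. dre-miR-21 exceeded the sum of the next 5, 6 and 6 miRNAs in control 1, 2 and 3 and of the next 5, 5 and 8 in cold acclimation 1, 2 and 3. It was 25656 to 42009 times the median known miRNA.

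Below dre-miR-21 the order of the abundant miRNAs was rearranged. dre-miR-100-5p, of a family known in mammals for repressing mTOR, ranked 3 in each control and 9, 10 and 6 under cold acclimation. dre-let-7a, of the family that promotes differentiation, ranked 5, 4 and 4 and then 10, 9 and 9. dre-miR-10c-5p, of a family encoded in the Hox clusters, ranked 10 in each control and 5 in each cold library. For each read of dre-miR-100-5p there were 3.80, 3.86 and 4.59 reads of dre-miR-21 in the controls and 17.7, 17.1 and 15.4 under cold acclimation. For each read of dre-let-7a there were 8.90, 8.46 and 8.30 and then 18.3, 16.8 and 17.8. For each read of dre-miR-10c-5p there were 26.9, 27.9 and 24.1 and then 12.0, 12.1 and 13.1. Read against dre-miR-21, nearly level in TPM, the 3 miRNAs were thus well separated between the conditions, with no overlap of libraries.

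**Figure D4:**
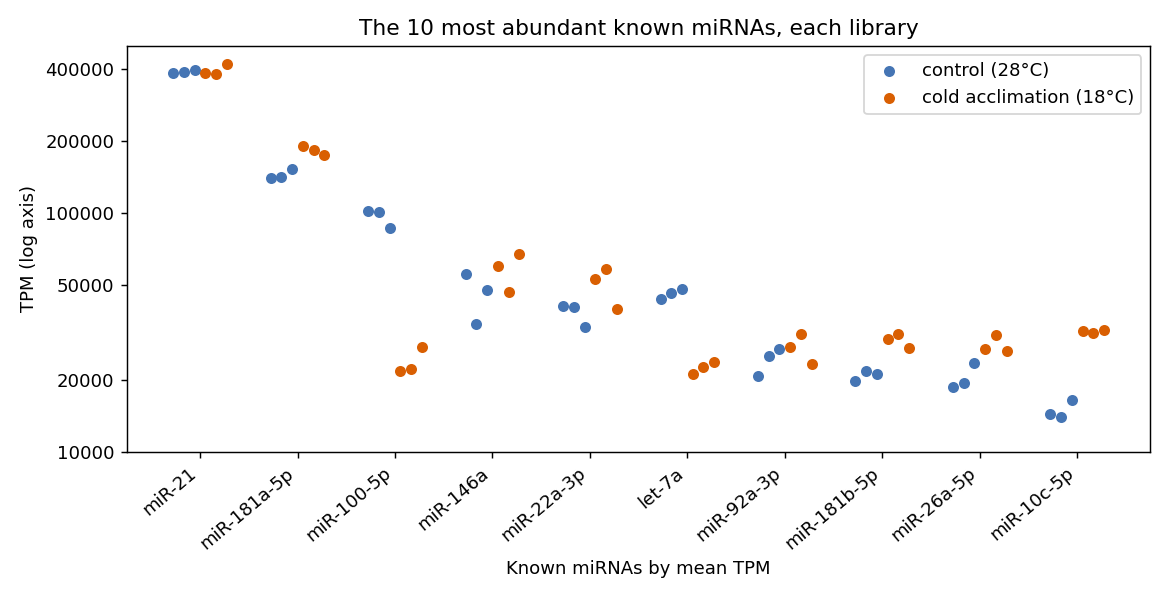
TPM of the 10 most abundant known miRNAs in each library on a log axis, ordered by mean TPM, control and cold acclimation in different colours. dre-miR-21 stands alone between 379977 and 421105 TPM in both conditions, and dre-miR-100-5p, dre-let-7a and dre-miR-10c-5p show the widest separation of colours.

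Taking dre-miR-21 out of the total showed what the other miRNAs did among themselves. The values of the other miRNAs were multiplied by 1.63, 1.64 and 1.66 in the controls and by 1.62, 1.61 and 1.73 under cold acclimation. Of 315 other miRNAs tested, 59 rose and 52 fell (limma, adjusted p under 0.01), which is 18.7% and 16.5%. That split depended on the total. It was 32 and 76 with clean reads, a total that still counts dre-miR-21, and 49 and 65 with median-of-ratios scaling. When dre-let-7a and dre-miR-100-5p were also excluded, it was 34 and 79. That shift towards falls follows by construction from leaving out a pair that fell. Without control 3, 77 rose and 71 fell. Without cold acclimation 3, 40 rose and 22 fell, and without cold acclimation 1, 24 rose and 17 fell.

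The abundant miRNAs next to dre-miR-21 split into some that rose and some that fell. dre-miR-100-5p fell from 15.8% ± 1.26 to 3.95% ± 0.675 of the other reads, a log2 fold change of -2.01 (SE 0.13, limma adjusted p = 1.3e-05). dre-let-7a fell from 7.502% ± 0.422 to 3.71% ± 0.335, a log2 fold change of -1.02 (limma adjusted p = 0.000135). dre-miR-10c-5p rose from 2.45% ± 0.241 to 5.27% ± 0.259, a log2 fold change of 1.11 (limma adjusted p = 0.000115). These 3 passed under all 18 alternatives. The calls of the miR-181 pair were weaker. dre-miR-181a-5p rose from 23.7% ± 1.28 to 30.2% ± 0.755 of the other reads, a log2 fold change of 0.35 (limma adjusted p = 0.00831), and passed in 1 of the 6 fits that left out a library, the one without control 3. dre-miR-181b-5p rose from 3.43% to 4.83% (log2 fold change 0.50, limma adjusted p = 0.00286) and passed in 2 of those 6. Both calls were also lost with clean reads, under median-of-ratios scaling, and when dre-let-7a and dre-miR-100-5p were excluded from the total. Of all 18 alternatives, dre-miR-181a-5p passed in 7 and dre-miR-181b-5p in 10.

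The remaining 4 of the abundant miRNAs did not pass. dre-miR-146a, a brake on NF-κB signalling in mammals, took 7.49% and 9.63% of the other reads in control and cold acclimation (log2 fold change 0.37, limma adjusted p = 0.163). dre-miR-22a-3p, known from cardiac growth in mice, took 6.24% and 8.25% (limma adjusted p = 0.0385). dre-miR-26a-5p, a repressor of the chromatin enzyme EZH2 in mammals, took 3.36% and 4.62% (limma adjusted p = 0.0121, passing without control 3). dre-miR-92a-3p, of the miR-17-92 cluster, took 3.99% and 4.49% (limma adjusted p = 0.304). Together the 9 held 72.3% to 76.1% of the other reads, and 4 other miRNAs sufficed for 50% of these reads in every library. Members of the let-7 and miR-181 families are close in sequence, and the treatment of reads matching more than 1 miRNA is not stated in the sources at hand, so values of single members are uncertain.

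**Figure D5:**
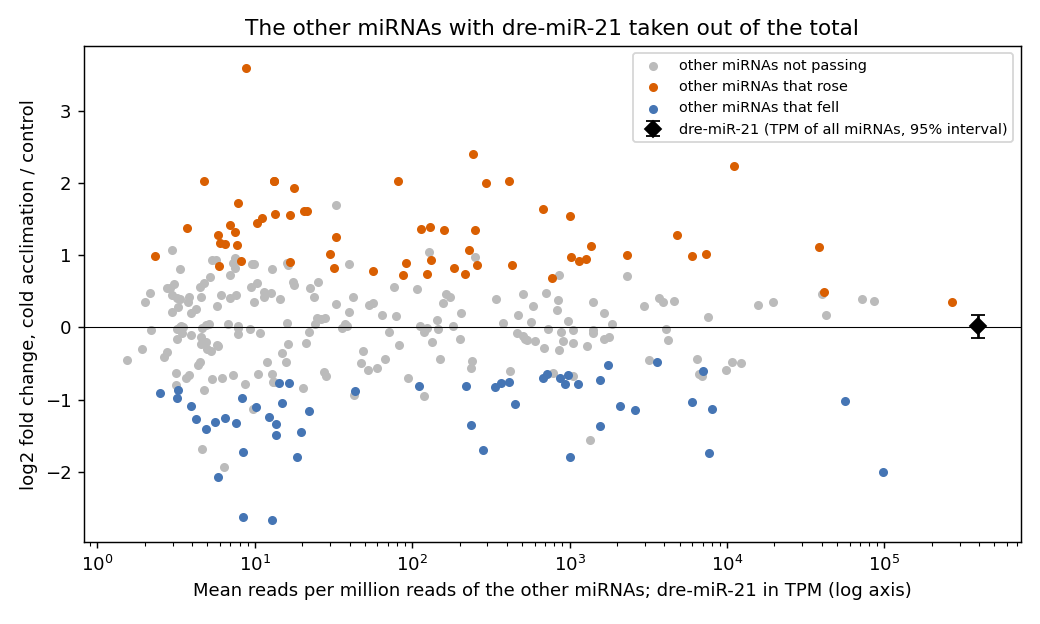
log2 fold change (cold acclimation over control) of the other miRNAs against their mean reads per 1000000 reads of the other miRNAs on a log axis, coloured by whether they rose, fell or did not pass, with dre-miR-21 as a diamond with its 95% interval. The 59 miRNAs that rose and the 52 that fell lie on both sides of dre-miR-21 at 0.02.

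Removing dre-miR-21 changed few calls. Over the 309 miRNAs tested with and without it, 51 rose and 45 fell under both totals, 0 calls were lost, 0 turned, and 14 were gained, 7 in each direction. The median of the shifts in log2 fold change was 0.01, the amount that the scaling factors give. Single shifts ran from -0.26 to 0.48. The 14 gained calls went from adjusted p-values of 0.01005 to 0.0148 to values of 0.00815 to 0.00996 in limma, so each crossed the threshold from close by. The most abundant of them were dre-miR-210-3p, the hypoxia-induced miRNA (log2 fold change -0.47), dre-miR-140-3p of cartilage (-0.51), dre-miR-93 (-0.75), dre-miR-204-5p, known from eye development (-0.81), and dre-miR-193b-3p (0.74). A fixed pseudocount of 1 also weighs less on the larger rescaled values, which by itself moves the fold changes of scarce miRNAs.

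With dre-miR-21 itself as the reference, fewer miRNAs passed. Of 316 miRNAs tested as a ratio to dre-miR-21, 40 rose and 40 fell, 12.7% in each direction. dre-miR-100-5p had a log2 fold change of -2.04 on this scale and dre-miR-181a-5p one of 0.32. Both values are the lead of dre-miR-21 over a single abundant miRNA seen from the other side, so they are given as a description with no test.

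The spread of reads over miRNAs was compared with and without dre-miR-21 through the effective number of miRNAs, the number of equally abundant miRNAs that would give the same Shannon entropy. It was 12.5, 12.8 and 12.0 in the controls and 12.0, 12.7 and 10.9 under cold acclimation (exact permutation p = 0.4, adjusted 0.533). Without dre-miR-21 it was 20.5, 21.6 and 20.3 and then 19.2, 20.7 and 19.0 (exact permutation p = 0.3, adjusted 0.533). The conditions overlapped in both, and cold acclimation 3, where dre-miR-21 was highest, had the lowest value each time.

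Other miRNAs with roles in fibroblasts were read beside dre-miR-21. A list of 9 others that promote fibrosis in mammals and a list of 22 that oppose it were read in TPM. Of the 9, 3 rose and 0 fell, beside 16.5% and 14.5% of all tested, and the median log2 fold change of the list was -0.10 beside 0.02 over all tested. The inflammatory dre-miR-155 rose from 2.35 ± 0.349 to 6.74 ± 1.37 TPM (log2 fold change 1.20, limma adjusted p = 0.00175) and passed in every fit that left out a library. The p53 target dre-miR-34a rose from 85.3 ± 27.1 to 219 ± 73.7 TPM (limma adjusted p = 0.00578) and dre-miR-132-3p, known from neurons, from 11.8 ± 1.92 to 24.7 ± 6.27 TPM (limma adjusted p = 0.00695). The call of dre-miR-34a held in 2 of the 6 fits that left out a library and that of dre-miR-132-3p in 1. The most abundant of the 9, dre-miR-222a-3p, was at 10725 ± 3028 and 13246 ± 1581 TPM and did not pass (limma adjusted p = 0.175).

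Control 3 decided several calls of this list, 3 of them of miRNAs shared with the mesenchymal markers. Without it, 22.1% of all tested rose and 22.1% fell. Of the 9, 3 rose and 4 fell: the shared dre-miR-214, dre-miR-199-5p and dre-miR-145-5p, and dre-miR-221-3p, which is no such marker. dre-miR-214, a developmental miRNA of mesenchyme, was at 1272 ± 708 TPM in control and 365 ± 37.4 TPM under cold acclimation, with a log2 fold change of -1.58 (limma adjusted p = 0.0122) with all libraries and -2.20 without control 3. Of the 8 mesenchymal markers 0 rose and 1 fell with all libraries, and 0 rose and 7 fell without control 3, beside the 22.1% of all tested that fell there. Control 3 was set apart in part because the sum of these markers was low in it, so more falls without it follow by construction. Those counts, and the falls of the 3 shared members, are a description with no test. dre-miR-21 was 18.7 to 54.7 times the sum of the 8 markers over the libraries. It differed from the mean of the other controls by 0.03 log2 units in control 3. Leaving out any 1 library, 1 to 3 of the 9 rose and 0 to 4 fell. Over all tested miRNAs the same fits gave 24 to 68 rises and 18 to 68 falls, of 308 to 310.

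Of the 22 miRNAs that oppose fibrosis, 2 rose and 4 fell, counts near the 16.5% and 14.5% of all tested, and their median log2 fold change was -0.35 beside 0.02 over all tested. dre-let-7e rose from 2985 ± 131 to 5999 ± 490 TPM (log2 fold change 1.00, limma adjusted p = 0.000208). dre-miR-30a-5p, of a family that represses connective tissue growth factor in mammals, rose from 3.12 to 9.52 TPM (limma adjusted p = 0.00194). dre-let-7a, dre-miR-30b, dre-miR-30d and dre-miR-101a fell, with log2 fold changes of -1.03, -0.75, -0.62 and -0.80. The calls of dre-let-7e and dre-let-7a held in all 6 fits that left out a library and that of dre-miR-30a-5p in 4. Those of dre-miR-30b, dre-miR-30d and dre-miR-101a held in 2, 1 and 2 of the 6. All 3 were lost on leaving out any 1 of the cold libraries. let-7 members thus moved in both directions. In the miR-30 family the rise rested on dre-miR-30a-5p alone, which was scarce beside dre-miR-30d at 5214 TPM in control. The treatment of reads matching more than 1 miRNA is not stated, so values of single miR-30 members are uncertain too. With clean reads as library sizes, 2 of the 22 rose and 10 fell, where 10.6% of all tested rose, 25.2% fell and the median of all was -0.24. Leaving out any 1 library, 1 to 3 rose and 1 to 5 fell. Over all tested miRNAs those fits gave 24 to 68 rises and 18 to 68 falls, of 308 to 310. Without control 3, 3 of the 22 rose and 5 fell, beside 22.1% of all tested in each direction. That fit added dre-miR-26a-5p to the rises and dre-miR-101b to the falls. dre-miR-21 alone had 3.49 to 4.95 times the reads of the 22 together and 12.2 to 23.3 times those of the 9.

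The profiles of single miRNAs across the 6 libraries were compared with that of dre-miR-21 by Pearson's r on log2(TPM + 1), as a description over points that share a library total. The highest r among known miRNAs was 0.57, for dre-miR-451, an erythrocyte miRNA averaging 1.35 TPM in control and 2.70 TPM under cold acclimation. Next came r of 0.49 for dre-miR-457b-5p and 0.48 for dre-miR-146a. Those of dre-miR-451 and dre-miR-146a became -0.15 and -0.20 without cold acclimation 3, the library in which dre-miR-21 was highest. The lowest were -0.98 for dre-miR-22b-3p, -0.97 for dre-miR-338 and -0.95 for dre-miR-460-3p, and without cold acclimation 3 they were -0.95, -0.85 and -0.74. dre-miR-22b-3p was at 661, 678 and 599 TPM in the controls and at 673, 749 and 485 TPM under cold acclimation. It was low where dre-miR-21 was high in both conditions. Over the 309 other miRNAs the median r was -0.21, with 52 below -0.5 and 3 above 0.5, and it was -0.13 once dre-miR-21 was taken out of the total.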

How the data were processed

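Small RNA of ZF4 cells was sequenced in 6 libraries, 3 per condition. Per the study's methods, the authors removed adapters and low-quality reads, aligned the rest to miRBase entries with Bowtie2 2.3.0 and predicted further miRNAs. The deposited values are CPM by their construction and are named TPM by the authors: reads of a miRNA per 1000000 miRNA reads. They cover 349 known and 65 predicted miRNAs.

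From these values limma 3.58.1 (R 4.3.3, trended prior) was fitted on log2(value + 1), for miRNAs with a mean above 1.5, with Benjamini-Hochberg adjustment over all tested and a threshold of 0.01. The fit was repeated with dre-miR-21 taken out of each total and with dre-miR-21 as the reference. Fold changes on a log2(value + 1) scale understate those of scarce miRNAs. Single values were tested by exact two-sided permutation (scipy 1.17.1). The limma fit was tested on simulated data in which neither dre-miR-21 nor the other most abundant known miRNAs changed. The other steps were not tested. Read numbers were obtained by dividing TPM by the value of 1 read (largest deviation from whole reads 0.0300), and 0 pairs of libraries were identical. Clean read totals came from the study's text.

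The named miRNAs are dre-miR-21, the other 9 of the 10 most abundant known ones, the 3 highest and 3 lowest known correlates, list members that passed with the most abundant member, and up to 5 whose call changed. dre-miR-214 and the other members named without control 3 were chosen after their values were seen. miRNAs sharing the seed of dre-miR-21 were not analysed here. The members and lists were chosen with earlier results of these data known. Alternatives were other pseudocounts, filters, totals and thresholds, a replicate block, and leaving out each library. Count-based tests were planned and not run.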

Additional observations from a re-analysis of the deposited data

How the results depend on the processing

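dre-miR-21 stayed short of the threshold under all 14 alternatives, but the sign of its log2 fold change (0.02) did not hold: it was -0.29 with clean reads as library sizes, -0.0741 under median-of-ratios scaling and -0.14 when dre-let-7a and dre-miR-100-5p were excluded from the total, and it ran from -0.0308 to 0.0433 on leaving out each library. With dre-miR-21 taken out of the total, the 59 miRNAs that rose became 34 with that pair also excluded, and 24 to 77 on leaving out each library. They became 32 with clean reads, a total that still counts dre-miR-21. The 52 that fell became 79 with that pair excluded, 76 with clean reads, 29 among known miRNAs alone, 80 at an adjusted p under 0.05, and 17 to 71 on leaving out each library. The log2 ratio to all other reads (0.03) ran from -0.0502 to 0.0734 on leaving out each library, and the difference in effective number from -0.99 to -0.07. The log2 ratio to the next miRNA differed by -0.32, by -0.40 to -0.27 on leaving out each library, and by -0.00969 against the geometric mean of the next 9. dre-miR-92a-3p turned from 0.17 to -0.14 with clean reads and to -0.0926 with that pair excluded. Excluding that pair, which fell, lowers the other log2 fold changes by construction. The cause of the other moves was not tested. Same-numbered libraries deviated together only weakly (r of 0.015, 0.14 and 0.06), though more than every differently numbered combination (-0.089 to 0.009). The numbers were not taken as pairs in the main fit. With a replicate block, dre-miR-21 gave 0.02 (adjusted p = 0.844) and 43 other miRNAs rose and 43 fell. The count-based tests planned as alternatives were not run: a library had 84 to 98 values at or under 20 reads, short of the 100 set for such a test. The read numbers used for counting error rest on all values, each within 0.0300 of a whole read.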
